A study of Homo sapiens with 7 samples.

Results

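The genes described here are 10 core genes of the circadian clock, taken by name from the deposited gene table: PER1, PER2, PER3, CRY1, CRY2, CLOCK, BMAL1 (formerly ARNTL), NR1D1, NR1D2 and DBP. All 10 of them were found among the 19978 genes of the table, and all 10 passed the expression filter that left 14863 genes for testing. The cells were HEK-293, an established line from human embryonic kidney, grown in DMEM with serum. They were then kept in the treatment medium and harvested once, after 48 h. The methods name that medium as DMEM without saying whether it held serum. Control cells (2 samples) were kept at pH 7.4 with the vehicle DMSO. Acidosis was pH 6.6, set by adding HCl to the medium, with the same vehicle (3 samples). SRPIN340, an inhibitor of SR protein kinases, was given at 10 µM in DMSO at pH 7.4 (2 samples). The study set acidosis beside SRPIN340 to compare a fall in pH with the loss of SR protein phosphorylation, and the clock genes were no question of its own.

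The circadian clock is a transcriptional feedback loop that runs in nearly every cell type. CLOCK and BMAL1 form a dimer that binds E-box elements and activates the PER, CRY, NR1D and DBP genes. PER and CRY proteins return to the nucleus and inhibit the dimer. The nuclear receptors REV-ERB alpha and beta, encoded by NR1D1 and NR1D2, repress BMAL1 through RRE elements, and DBP activates genes with D-box elements. PER1 and PER2 are also induced within minutes to hours by serum, cAMP, glucocorticoids and stress, apart from the loop itself. A single harvest gives a level at one time, so neither rhythm nor phase was measured.

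Library totals lay between 13615816 and 24110460 estimated counts, and the shallowest were acidosis samples 2 and 3. The study's methods call the samples biological repeats without saying whether they were separate cultures. They add that each repeat was sequenced in replicates, without saying how these entered the deposited samples. The p-values therefore measure the spread between these samples, which may be partly technical. Every pair of replicates differed by more than counting noise. Scaling factors (TMM) were 1.17 to 1.21 at pH 7.4 and 0.782 to 0.800 in acidosis, and with scaling by library total alone the median over all genes in acidosis against control was -0.63 on the log2 scale. Of 6 genes known from HEK-293, VIM led with group means from 864 to 2714 CPM and PAX2 was lowest at 1.81 to 6.77 CPM. These 6 summed to 1005 to 1080 CPM in control, 1024 to 1073 CPM with SRPIN340 and 2950 to 3006 CPM in acidosis. Most of that sum was VIM, at 867 CPM in control and 2714 CPM in acidosis. In acidosis against control, VIM, NEFM and NEFL had log2 fold changes of 1.65, 1.65 and 0.66. LHX1 was at 0.11, and INA and PAX2 went the other way, at -0.70 and -1.93. Of 7 genes that mark other cell types, CD3E was at 0 in every sample and PTPRC, ALB, PECAM1 and GFAP had group means up to 0.877 CPM, while EPCAM (144 to 262 CPM) and COL1A1 (30.8 to 62.3 CPM) were expressed. The sum over these 7 markers was 168 to 184 CPM in control, 195 to 199 CPM with SRPIN340 and 325 to 327 CPM in acidosis, and its part in the results was not tested.

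The promoter windows were searched for the elements through which the loop is known to run. Matches were found for 9 of the 10 genes. They are shown here except those to TGGGTCA in NR1D2 and CLOCK. RefSeq (GRCh38.p14) gave 15 windows for the 10 genes, each from 250 bases before to 50 bases after a transcription start. Both strands were searched for the E-box CACGTG, its variant CACGTT (called E-prime box here), the D-box TTATGNAA, the RRE core TAGGTCA or TGGGTCA, and the cAMP response element TGACGTCA. Each line gives the element with 10 bases on either side, 5′ to 3′ on the strand of the gene, with the element in capitals. The first lines are E-boxes and E-prime boxes.
PER1 E-box, chr17:8152562-8152587, minus strand: cacccaggtcCACGTGcgcccgtgtg
NR1D2 E-box, chr3:23945956-23945981, plus strand: cgggcggggaCACGTGaggccgctcg
NR1D2 E-box, chr3:23946006-23946031, plus strand: gccgcagggaCACGTGggggcggggg
PER2 E-prime box, chr2:238288792-238288817, minus strand: cgcgcgcggtCACGTTttccactatg
CRY1 E-prime box, chr12:107093623-107093648, minus strand: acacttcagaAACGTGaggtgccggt
CRY2 E-prime box, chr11:45847277-45847302, plus strand: acatggtaggAACGTGagggggcggg
NR1D1 E-prime box, chr17:40100742-40100767, minus strand: gcaagagctcAACGTGccggctgttg
CLOCK E-prime box, chr4:55546104-55546129, minus strand: accactcgggCACGTTtggagcagcg
The next lines are D-boxes and an RRE core of BMAL1 and of CRY2.
PER1 D-box, chr17:8152417-8152444, minus strand: gtgcccggcaTTATGCAAcccgcctccc
PER3 D-box, chr1:7784104-7784131, plus strand: agcccgcgcgTTATGTAAcgcgccccgg
NR1D2 D-box, chr3:23945917-23945944, plus strand: tgacgcggcaTTACATAAtgggcgctga
BMAL1 RRE core, chr11:13277810-13277836, plus strand: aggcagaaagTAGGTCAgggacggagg
CRY2 RRE core, chr11:45847400-45847426, plus strand: tgcggcgtcaTAGGTCActgggcgggc

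The E-box was in 2 of the 15 windows, against 7.26% of 35116 RefSeq windows of the same length, and the E-prime box in 5 of 15, against 5.34%. The D-box was in 3 of 15, against 3.30% of all windows. The RRE core TAGGTCA was in 2 of 15, against 1.85%, and TGGGTCA in 2 of 15 (NR1D2 and CLOCK), against 3.92%. The cAMP response element was in 0 of 15 windows, against 1.85%, which says only that these letters are not in these windows. The window of DBP held none of the elements searched. A match is a description of the sequence and not evidence of binding.

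Acid medium raised most of the negative arm of the clock and lowered CLOCK and DBP. PER1 rose 20.7-fold and PER2 5.07-fold, CRY1, CRY2 and NR1D1 rose between 2.11-fold and 2.53-fold, and NR1D2 rose 1.44-fold. CLOCK fell 1.79-fold and DBP fell 3.10-fold, while PER3 and BMAL1 did not pass the test. With SRPIN340 none of the 10 genes passed. A gene passed at an adjusted p under 0.05 and was called if its log2 fold change was also over 1 in size. Of the 10 genes, 8 passed in acidosis against control, against 66.7% of all genes tested, so with 10 genes the count is close to the background. Those that passed were 6 higher, against 32.5% of all genes, and 2 lower, against 34.2%. The called members were 6, against 33.5% of all genes. They were 5 higher, against 14.4%, and 1 lower (DBP), against 19.1%. With library totals alone as the scale, CRY1, CRY2 and NR1D1 (log2 fold changes 0.77, 0.71 and 0.50) passed but were not called. On that scale CLOCK (-1.41) was called lower, NR1D2 (-0.053, edgeR adjusted p = 0.604) did not pass, and PER3 (-0.83, edgeR adjusted p = 0.0128) passed lower. The acidosis and control samples of 8 members did not overlap, against 76.5% of all genes. The median log2 fold change of the 10 was 0.80, and that of all genes tested -0.05.

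**Figure D1:**
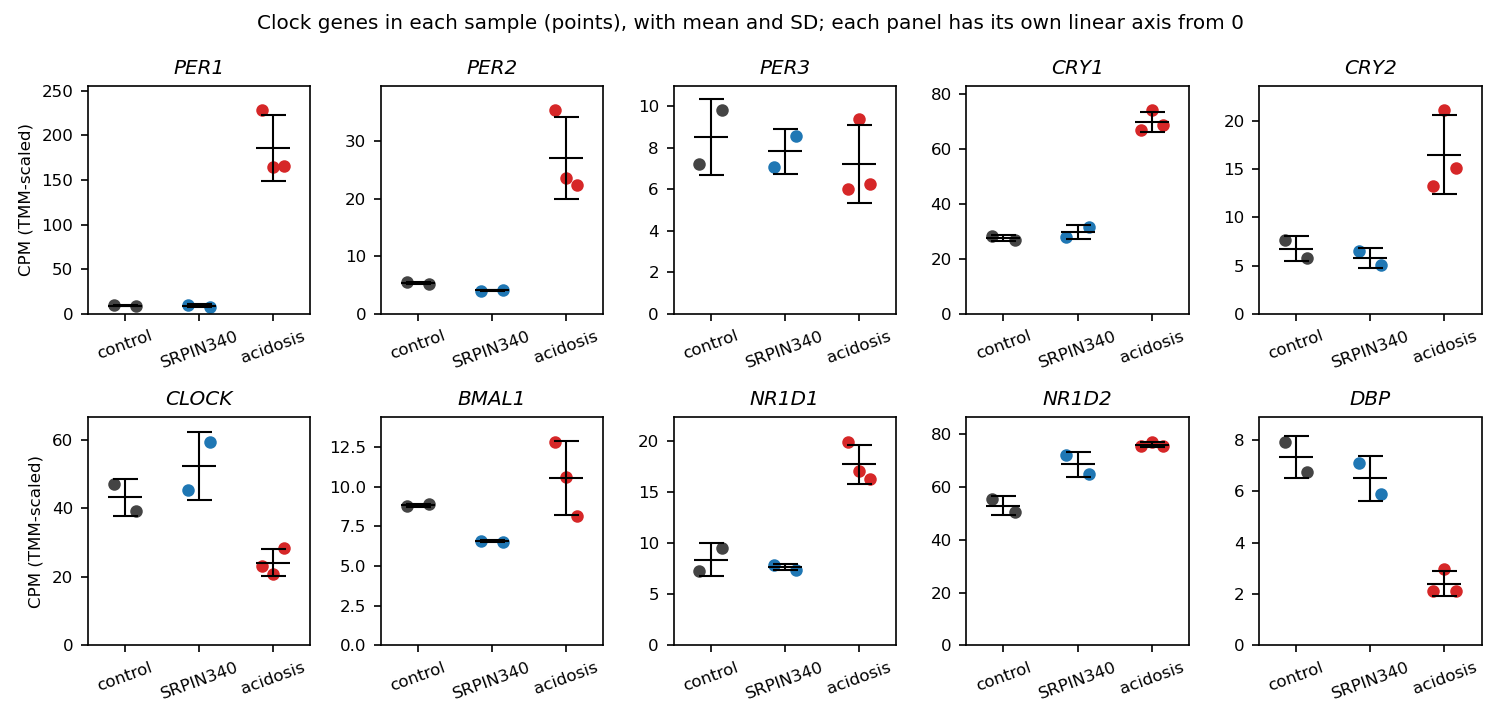
Level of each clock gene in every sample, in CPM on a linear axis that starts at 0 in each panel. Points are samples (2 control, 2 SRPIN340, 3 acidosis) and black bars give mean and SD. The acidosis points lie above all others for PER1, PER2, CRY1, CRY2, NR1D1 and NR1D2 (scaled by library totals alone, NR1D2 had a log2 fold change of -0.053 against control) and below all others for CLOCK and DBP.

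CLOCK (ENSG00000134852.15, chromosome 4 of GRCh38, 55427903 to 55546909) encodes the partner of BMAL1 in the activating dimer and a histone acetyltransferase. It was at 47.0 and 39.3 CPM in the control samples, 45.3 and 59.4 CPM with SRPIN340 and 23.3, 20.7 and 28.5 CPM in acidosis. All 3 acidosis samples were below every other sample. Control averaged 43.2 ± 5.48 CPM (SD, n = 2) and acidosis 24.1 ± 3.97 CPM (SD, n = 3). The log2 fold change was -0.84 (standard error 0.163, edgeR adjusted p = 0.00127). The gene shares 76 exon bases with TMEM165 on the other strand, which fell by 0.51 on the log2 scale.

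BMAL1 (ENSG00000133794.20, chromosome 11, 13276652 to 13387266), the other partner in the dimer and the target of the REV-ERB repressors, was at 8.78 and 8.89 CPM in control and at 12.8, 10.6 and 8.15 CPM in acidosis. The acidosis samples lay on both sides of the control samples. The log2 fold change was 0.26 (95% interval -0.18 to 0.71, edgeR adjusted p = 0.268), and it was -0.31 when library totals alone set the scale. With SRPIN340 BMAL1 was at 6.60 and 6.52 CPM, below both control samples, and this difference did not pass (log2 fold change -0.43, edgeR adjusted p = 0.345). Tested directly, BMAL1 was higher in acidosis than with SRPIN340 (log2 fold change 0.69, standard error 0.204, edgeR adjusted p = 0.0128). That difference did not pass without SRPIN340 replicate 1 or 2 (edgeR adjusted p = 0.068 and 0.0721) or with scaling by total count only (edgeR adjusted p = 0.745).

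PER1 (ENSG00000179094.16, chromosome 17, 8140472 to 8156506), a period repressor that is also an early response gene, changed most of the 10. It was at 9.47 and 8.47 CPM in control, at 10.2 and 8.16 CPM with SRPIN340 and at 228, 164 and 165 CPM in acidosis. The acidosis samples stood far above all others, and acidosis sample 1 was the highest. Control averaged 8.97 ± 0.705 CPM (SD, n = 2) and acidosis 186 ± 36.5 CPM (SD, n = 3). The log2 fold change was 4.37 (standard error 0.189, edgeR adjusted p = 6.81e-08). Over 14 alternatives of scaling, filter, tool and samples the value stayed between 3.80 and 4.46. A read-through gene on the same strand (ENSG00000263620) shares 30 exon bases with PER1 and had at most 15.8 counts in a library.

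PER2 (ENSG00000132326.12, chromosome 2, 238244044 to 238290102), a paralog of PER1, was the lowest of the 10 genes in control, at 5.47 and 5.27 CPM. In acidosis it was at 35.4, 23.6 and 22.4 CPM, all above every other sample, with sample 1 again the highest. The log2 fold change was 2.34 (standard error 0.223, edgeR adjusted p = 9.92e-06). With SRPIN340 it was at 4.03 and 4.12 CPM, below both control samples, and this difference did not pass (log2 fold change -0.40, 95% interval -0.94 to 0.15, edgeR adjusted p = 0.446).

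PER3 (ENSG00000049246.15, chromosome 1, 7784291 to 7845177), a period gene that is dispensable for the core loop in mice, did not follow its paralogs. It was at 7.20 and 9.79 CPM in control, 7.05 and 8.58 CPM with SRPIN340 and 6.00, 9.35 and 6.23 CPM in acidosis. The groups overlapped, and the log2 fold change in acidosis was -0.25 (95% interval -0.80 to 0.29, edgeR adjusted p = 0.379). With scaling by total count only it was -0.83 and passed (edgeR adjusted p = 0.0128). PER3 shares 868 exon bases with UTS2 on the other strand, which had group means of at most 0.0743 CPM.

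The makeup of the PER family changed with these values. Per kilobase of canonical transcript, PER1 gave 50.5% and 43.4% of the PER signal in control, 55.7% and 46.7% with SRPIN340 and 88.2%, 87.1% and 88.7% in acidosis. PER3 gave 28.2% and 36.8% in control and 1.71%, 3.65% and 2.46% in acidosis. The PER2 share went from 20.6% ± 1.11 (SD, n = 2) to 9.36% ± 0.640 (SD, n = 3), although its own level rose. These shares are taken within a library and do not depend on scaling between libraries.

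CRY1 (ENSG00000008405.12, chromosome 12, 106991364 to 107093549) encodes the strongest repressor of the CLOCK and BMAL1 dimer. It was at 28.5 and 26.7 CPM in control, 28.0 and 31.6 CPM with SRPIN340 and 66.9, 74.0 and 68.8 CPM in acidosis. The 3 acidosis samples lay close together above all others, with a log2 fold change of 1.34 (standard error 0.103, edgeR adjusted p = 2.33e-06). CRY2 (ENSG00000121671.12, chromosome 11, 45847118 to 45883248), its paralog, was at 7.63 and 5.81 CPM in control, 6.48 and 5.04 CPM with SRPIN340 and 13.3, 21.1 and 15.1 CPM in acidosis. It rose by 1.29 on the log2 scale (standard error 0.238, edgeR adjusted p = 0.000922), and its acidosis samples were more spread than those of CRY1. The CRY1 share of the CRY signal per kilobase was 85.1% ± 1.87 (SD, n = 2) for control and 85.6% ± 2.35 (SD, n = 3) for acidosis, closer together than the samples of either group.

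NR1D1 (ENSG00000126368.6, chromosome 17, 40092793 to 40100589), which encodes the haem-binding repressor REV-ERB alpha, was at 7.23 and 9.55 CPM in control, 7.84 and 7.41 CPM with SRPIN340 and 19.9, 17.0 and 16.3 CPM in acidosis. Every acidosis sample was above every other sample. The log2 fold change was 1.08 (standard error 0.177, edgeR adjusted p = 0.000407). NR1D1 shares 473 exon bases with THRA, the thyroid hormone receptor alpha gene on the other strand, and reads from the shared part cannot be told apart where counting ignores strand. THRA fell by 0.38 on the log2 scale (edgeR adjusted p = 0.00393).

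NR1D2 (ENSG00000174738.13, chromosome 3, 23945286 to 23980617), which encodes REV-ERB beta, had the most CPM of the 10 genes in control, 55.6 and 50.4. It was at 75.4, 77.2 and 75.7 CPM in acidosis and at 72.1 and 65.2 CPM with SRPIN340, so both treatments lay above the control samples. In acidosis it rose by 0.52 on the log2 scale (standard error 0.0885, edgeR adjusted p = 0.000519), a change that was -0.053 with scaling by total count only. With SRPIN340 the log2 fold change was 0.37 (95% interval 0.16 to 0.59), which missed the threshold with edgeR (adjusted p = 0.0799) and passed with DESeq2 (adjusted p = 0.0188). Acidosis and SRPIN340 differed by 0.15 on the log2 scale (95% interval -0.05 to 0.34, edgeR adjusted p = 0.158). With scaling by total count only, NR1D2 was lower in acidosis than with SRPIN340 (-0.47, edgeR adjusted p = 0.000808). Both comparisons with control share the same control samples.

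DBP (ENSG00000105516.11, chromosome 19, 48630030 to 48637379) encodes a PAR-bZIP activator and is itself a strongly rhythmic target of CLOCK and BMAL1. It was at 7.92 and 6.75 CPM in control, 7.12 and 5.88 CPM with SRPIN340 and 2.13, 2.97 and 2.10 CPM in acidosis. It was the only member besides CLOCK with all acidosis samples below all control samples. The log2 fold change was -1.63 (standard error 0.238, edgeR adjusted p = 0.000189), from 192 to 220 counts per control library and 24.5 to 35.8 counts per acidosis library. DBP shares 661 exon bases with SPHK2 on the other strand, which fell by 1.47 on the log2 scale (edgeR adjusted p = 2.27e-05), and the part of that overlap in the DBP value was not tested.

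**Figure D2:**
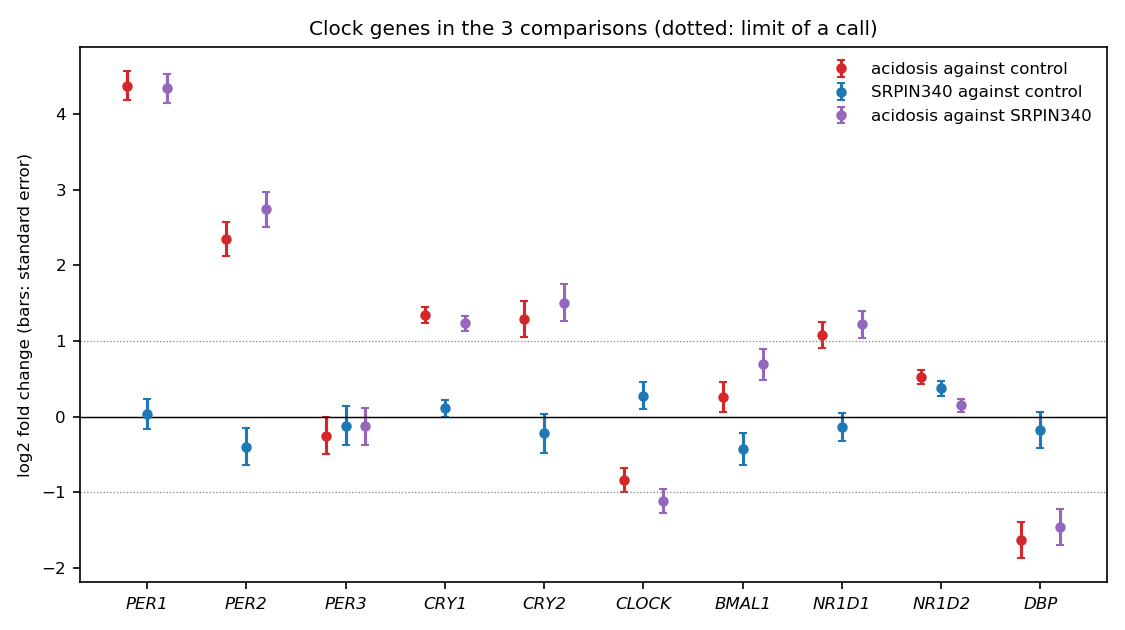
Log2 fold change of each clock gene in the 3 comparisons, with bars for the standard error from edgeR and dotted lines at the limit of a call. PER1 and PER2 reach 4.37 and 2.34 in acidosis against control, and all SRPIN340 values lie between -0.43 and 0.37.

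With SRPIN340 the log2 fold changes of the 10 genes ran from -0.43 (BMAL1) to 0.37 (NR1D2), with a median of -0.13 against 0.00 for all genes. In this comparison 0 of 10 passed in edgeR, against 2.30% of all genes (0.767% higher and 1.53% lower). One member, NR1D2, had an unadjusted p under 0.05, and DESeq2 passed 1, NR1D2. The called members were 0, against 0.323% of all genes (0.128% higher and 0.195% lower). The samples did not overlap between SRPIN340 and control for 3 members (NR1D2 higher, PER2 and BMAL1 lower), against 54.1% of all genes. In acidosis against SRPIN340, 8 members passed, against 67.8% of all genes. They were 6 higher, against 32.8%, and 2 lower, against 35.0%. Of these, 7 were called, against 34.6% of all genes (14.9% higher and 19.7% lower), and the samples of 9 members did not overlap, against 78.3%. PER1 (log2 fold change 4.34), PER2 (2.74), CRY2 (1.51), CRY1 (1.23) and NR1D1 (1.22) were called higher, and DBP (-1.46) and CLOCK (-1.12) lower. This comparison uses the same acidosis samples as the one with control and is not an independent repeat of it.

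Levels were compared between genes as CPM per kilobase of the canonical transcript in GENCODE release 44. In control the order was NR1D2 (10.1), CRY1 (9.24), CLOCK (4.12), DBP (3.38), NR1D1 (3.19), BMAL1 (3.17), PER1 (1.92), CRY2 (1.63), PER3 (1.33) and PER2 (0.842). The samples of DBP, NR1D1 and BMAL1 overlapped in this order, as did those of PER1 with CRY2 and of CRY2 with PER3. With SRPIN340 the order of the means was the same. In acidosis it was PER1 (39.7), CRY1 (23.4), NR1D2 (14.5), NR1D1 (6.75), PER2 (4.25), CRY2 (3.99), BMAL1 (3.78), CLOCK (2.30), PER3 (1.13) and DBP (1.11), where the samples of PER2, CRY2 and BMAL1 overlapped and so did those of PER3 and DBP. PER1 thus went from place 7 to place 1 and DBP from place 4 to place 10. The place of DBP in control rests on the transcript chosen, since with its longest transcript it was at 1.27 CPM per kilobase and place 9.

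Ratios within a library do not depend on how libraries are scaled against each other. The log2 ratio of PER1 to BMAL1 counts was 0.11 and -0.07 in control, 0.63 and 0.32 with SRPIN340 and 4.15, 3.94 and 4.34 in acidosis. That of PER2 to BMAL1 was -0.68 and -0.75 in control and 1.46, 1.15 and 1.45 in acidosis. The ratio of CLOCK to BMAL1, the partners of the dimer, was 2.42 and 2.14 in control, 2.77 and 3.18 with SRPIN340 and 0.86, 0.95 and 1.80 in acidosis. That of DBP to BMAL1 went from -0.15 and -0.40 in control to -2.58, -1.83 and -1.93 in acidosis. Of 11 ratios, 8 had acidosis samples that did not overlap with the control samples, 6 of them higher and 2 lower. For the levels of single genes that share was 76.5% over all genes, and none was computed for ratios. The ratios to BMAL1 share its counts and are not independent of each other. The ratios of PER3 to BMAL1, NR1D2 to BMAL1 and CRY1 to CRY2 overlapped. In an exact two-sided permutation test each of the 8 reached p = 0.2, the smallest value that 3 against 2 samples allow, so none of them can pass a threshold of 0.05.

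**Figure D3:**
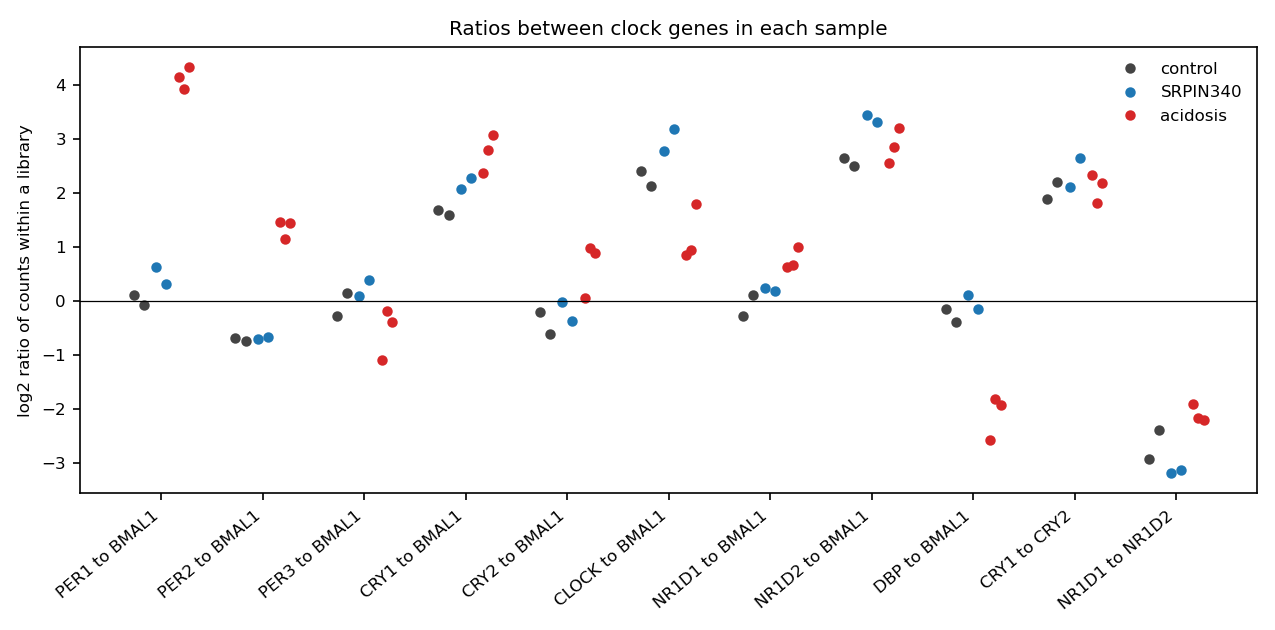
Log2 ratio of estimated counts within each library, for 9 members against BMAL1 and for the CRY and NR1D pairs. Each point is a sample. The acidosis points for PER1 to BMAL1 lie at 3.94 to 4.34, and those for DBP to BMAL1 at -2.58 to -1.83, apart from the other samples.

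The genes most like each member were sought by the distance between centred log2 CPM profiles over the 7 samples, as a description. Nearest to PER1 were IER2, an immediate-early gene (distance 0.40), and INHBA, an activin subunit gene (0.43), which had log2 fold changes of 4.40 and 4.60 in acidosis. Nearest to PER2 were ACTN2 (0.37) and RFX1 (0.45). Nearest to CRY1 were VCPIP1 and PDCD7 (both 0.12), to CRY2 SPATA5L1 (0.38) and OGA (0.40), to NR1D1 METTL17 (0.16) and ZNF444 (0.18), and to NR1D2 CTSH and HCN2 (both 0.15). Nearest to CLOCK were RAD50 (0.28) and DCUN1D1 (0.29), to DBP SMARCA2 (0.28) and BUB1 (0.29), to BMAL1 NPIPB3 (0.15) and MTA2 (0.26), and to PER3 ZNF419 (0.32) and TRMT1L (0.34). NPIPB3 belongs to a family of near-identical copies, so its counts are uncertain.

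Beyond the 10 members, 70 genes of the clock were described in 6 lists, of which 68 were tested, the others being too low. The lists were chosen with earlier results of these data known, so their counts and medians are a description only. In acidosis 35 passed higher and 16 lower, or 51 of 68, against 66.7% of all genes. Of 10 transcription factors tested that add to the loop, 7 passed higher, against 32.5% of all genes, 0 passed lower and 3 did not pass, and the median log2 fold change was 1.19 against -0.05 for all genes. TEF, a PAR-bZIP activator of the same family as DBP, rose from 8.28 to 70.4 CPM (log2 fold change 3.09). NFIL3, the bZIP repressor that competes with DBP and TEF for the D-box, rose from 16.1 to 131 CPM (3.03). BHLHE41 and BHLHE40, which compete with CLOCK and BMAL1 for the E-box, rose by 1.78 and 1.60 on the log2 scale. DBP therefore fell while its relative TEF rose, and HLF, the third gene of that family, had a log2 fold change of 0.78 (edgeR adjusted p = 0.0511).

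Among 14 kinases and phosphatases of clock proteins, 10 passed higher and 2 lower in acidosis, against 32.5% and 34.2% of all genes. Their median log2 fold change was 0.38. The casein kinase CSNK1E, which marks PER proteins for decay, rose by 1.23 on the log2 scale. CSNK2A2, a catalytic subunit of casein kinase 2, rose by 1.34, and PPP2CA, the catalytic subunit of phosphatase 2A, by 1.39. PRKAA2, an AMPK subunit that acts on CRY1, had a log2 fold change of -1.06. Among 12 ubiquitin ligase subunits and deubiquitinases, 4 passed in each direction, against 32.5% and 34.2% of all genes, with a median of -0.15. The deubiquitinase USP2 rose by 2.43, USP7 by 1.02 and the ligase subunit SKP1 by 1.34 on the log2 scale. BTRC, the F-box protein that recognises phosphorylated PER, had a log2 fold change of -1.48.

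Of 14 partners and cofactors, 2 passed higher and 8 lower, against 32.5% and 34.2% of all genes, and the median was -0.44. KMT2A, a histone methyltransferase, and RACK1, a scaffold of the PER complex, rose by 1.42 and 1.26 on the log2 scale. KDM5A, a histone demethylase, and EP300, an acetyltransferase, had log2 fold changes of -1.39 and -1.08. Of 9 genes of CREB and its coactivators, which carry cAMP and calcium signals to PER1 and PER2, 5 passed higher and 1 lower. The shares over all genes were 32.5% and 34.2%, and the median of the 9 was 0.62. SIK1, the kinase that switches the coactivators off, rose from 1.28 to 27.8 CPM (log2 fold change 4.44), but a near-identical copy of it is known in GRCh38, so its counts are uncertain. CRTC2, a coactivator, and ATF1 rose by 1.70 and 1.61, and SIK2 had a log2 fold change of -0.81. Of 9 output genes tested, 7 passed higher and 1 lower, against 32.5% and 34.2% of all genes, with a median of 1.31. KLF9 rose from 49.3 to 352 CPM (log2 fold change 2.83), NOCT by 2.30, CDKN1A by 1.96 and the kinase gene WEE1 by 1.92 on the log2 scale.

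**Figure D4:**
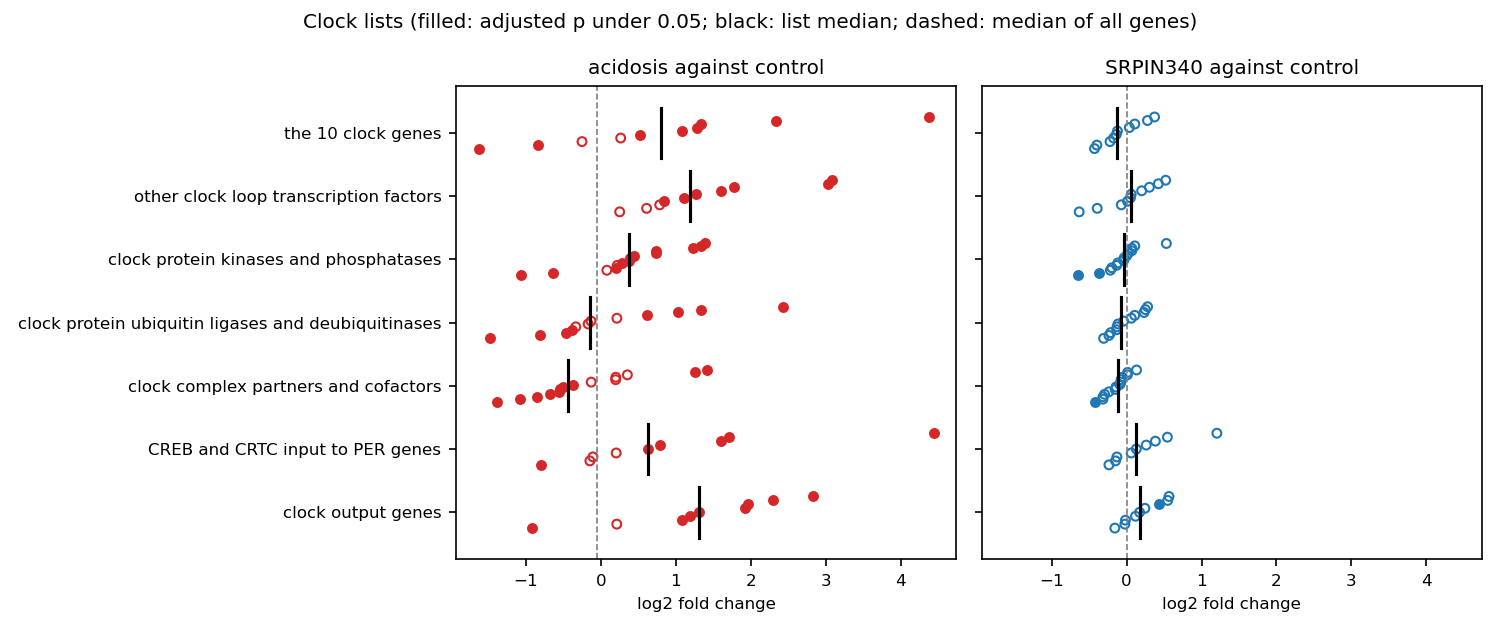
Log2 fold change of the clock genes by list, in acidosis against control (left) and SRPIN340 against control (right). Filled points had an adjusted p under 0.05, black bars are list medians and dashed lines the median of all genes. The list medians in acidosis run from -0.44 for partners and cofactors to 1.31 for output genes, and those with SRPIN340 from -0.13 for the 10 clock genes to 0.17 for output genes.

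With SRPIN340 4 of these 68 genes passed, against 2.30% of all genes, 1 higher and 3 lower, and 0 were called. KLF9 rose by 0.44 on the log2 scale (edgeR adjusted p = 0.0343). PPP1CA, a catalytic subunit of phosphatase 1, had a log2 fold change of -0.65 (edgeR adjusted p = 0.00702), GSK3A -0.37 (edgeR adjusted p = 0.0318) and the splicing factor SFPQ, a partner of PER complexes, -0.43 (edgeR adjusted p = 0.0378). Of the 68 genes, 0 passed in edgeR without SRPIN340 replicate 1 or 2, and 0 passed higher and 1 lower without control replicate 1 or 2. Without acidosis replicate 2, 3 passed higher and 3 lower. That sample is in neither group compared and enters through the shared filter, scaling and estimate of spread. The other lists, of transcription factors, ubiquitin ligases and CREB genes, had 0 genes that passed with SRPIN340 in edgeR, with 1, 2 and 4 genes at an unadjusted p under 0.05.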

How the data were processed

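Poly(A)-selected RNA of HEK-293 cells was sequenced in 7 samples. Per the paper's methods and the labels, the authors trimmed reads with Trimmomatic (version 0.39) and Trim Galore (version 0.6.6), quantified transcripts with Salmon (version 1.5.1) on GRCh38.p13 and summed them to genes (tximport). Values deposited by the authors are estimated counts, not scaled between samples. The tximport option and the use of strand are not given in the sources used here.

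The estimated counts were rounded and fitted by the quasi-likelihood method of edgeR (version 4.0.16, R version 4.3.3, TMM, filterByExpr, 14863 genes, all 7 samples, no block). Adjusted p is Benjamini-Hochberg over these genes. A gene passed at an adjusted p under 0.05 and was called if its absolute log2 fold change was also over 1. Standard errors came from the test statistic. CPM are counts scaled by the TMM-adjusted library total. DESeq2 (the tool of the study, here version 1.42.0), other scalings, filters, sample sets and a replicate block were alternatives, and the script was tested on simulated data. Samples with the same replicate number did not deviate together (r between -0.115 and 0.063 across all genes), so the numbers were not taken as pairs. Permutation tests used scipy 1.17.1.

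The members, the clock lists and the markers were chosen with earlier results of these data known. Named besides the 10 members were the 4 largest changes among passing genes of each list in acidosis, every list gene that passed with SRPIN340, and the 2 genes nearest to each member in centred log2 CPM over 7 samples (10112 candidates with a mean of at least 10 CPM). HLF and genes that share exon bases with members were named outside this rule, and family shares per kilobase were added, after the data were seen. One protocol label writes the inhibitor's number differently from the titles, which were followed. Identifiers were matched by Ensembl number, and 19977 of 19978 had a symbol.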

Additional observations from a re-analysis of the deposited data

How the results depend on the processing

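Over 14 alternatives for each member, 137 of 140 values in acidosis against control kept their direction and their side of the threshold, as did 134 of 140 in acidosis against SRPIN340 and 130 of 136 in SRPIN340 against control. In acidosis 8 members passed under each alternative, but with library totals only they were not the same 8, since NR1D2 no longer passed (edgeR adjusted p = 0.604) and PER3 did (-0.83, edgeR adjusted p = 0.0128), and 5 to 6 were called with a replicate left out. With library totals only, 4 members (PER1, PER2, CLOCK and DBP) were called in acidosis against control in place of 6. In acidosis against SRPIN340, 4 were called in place of 7. On that scale 33 list genes passed lower in acidosis in place of 16. BMAL1 and NR1D2 turned to -0.31 and -0.053 in acidosis against control. In acidosis against SRPIN340, NR1D2 turned to -0.47 and passed (edgeR adjusted p = 0.000808). PER3 in that comparison was at -0.74 and passed lower (edgeR adjusted p = 0.0213). The cause was not tested. With SRPIN340, DESeq2 passed 1 member, and 6 higher and 5 lower list genes. The list genes that passed higher were 2 with library totals only, without a low-count filter and with a minimum of 6 CPM, and 3 with only the groups compared. With a replicate left out they were 0 to 3 higher and 0 to 3 lower. With a replicate block they were 0 higher and 1 lower, and the block changed no call of a member. The numbers did not pair the samples. With a replicate left out, the SRPIN340 against control values ran from -0.13 to 0.19 for PER1, -0.33 to 0.11 for PER3 and -0.32 to 0.073 for NR1D1, and PER3 in acidosis against SRPIN340 from -0.36 to 0.014, none of which passed. Relative to TBP in place of BMAL1, the PER3 ratio turned to 0.11, and the CRY1 to CRY2 ratio lay between -0.089 and 0.21 with a replicate left out. TBP itself was lower in acidosis than in control (log2 fold change -0.36, edgeR adjusted p = 0.0225). With longest transcripts, the levels in control, SRPIN340 and acidosis were 7.20, 7.77 and 18.2 CPM per kilobase for CRY1, 2.29, 1.70 and 2.73 for BMAL1 and 1.27, 1.13 and 0.417 for DBP, and 0.814 and 0.617 in control and SRPIN340 for PER2. Depth limits DBP most, at 24.5 to 35.8 counts in acidosis libraries.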
